A study of Homo sapiens with 6 samples.

Results

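The genes described here are CCL2, C3AR1 and a group of chemokine and interleukin-6 (IL6) family genes, in RD cells with and without knockdown of the kinase TAK1. The 10 members are CCL2, CXCL8, CXCL12, IL6, LIF and CSF1, which encode secreted proteins, and C3AR1, IL6ST, LIFR and OSMR, which encode receptors. They were found by exact match of the gene symbol among the 58735 rows of the count table, and each symbol matched 1 row. The members were chosen by measured values as well as by function, since earlier results of the same comparison were known when the group was proposed. Their fold changes are therefore given as a description, and the threshold calls of the members, where counted, support nothing. Of the 10 members, 8 had enough counts to enter the fit across all genes, and CXCL8 and IL6 did not.

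RD is an established human cell line from an embryonal rhabdomyosarcoma, a soft tissue tumor with features of skeletal muscle. The cells carried lentivirus expressing either a scrambled shRNA (n = 3) or a TAK1 shRNA (n = 3), so both groups were transduced. TAK1 is encoded by MAP3K7. Knockdown with a single shRNA sequence in a single cell line was sequenced, the time between transduction and RNA extraction is not given in the sources used here, and nothing in the labels says that the samples of a group came from separate cultures. P-values then measure only the spread between these samples, which may be technical. In bulk RNA, fewer cells that express a gene and less RNA per cell cannot be told apart.

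CCL2 is a chemokine that draws monocytes through the receptor CCR2, CXCL8 draws neutrophils through CXCR1 and CXCR2, and CXCL12 acts through CXCR4. C3AR1 is the receptor for C3a, the fragment released when complement component C3 is cleaved. IL6, LIF, IL11, oncostatin M and most of their relatives signal through receptor complexes that share IL6ST (gp130). LIFR or OSMR is the partner chain for some of them. The complexes activate JAK kinases and STAT3. TAK1 relays signals from the receptors for IL1, TNF and Toll-like ligands to NF-κB and to the MAP kinases that act on AP-1.

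Stretches upstream of the start sites of C3AR1, CXCL8 and IL6 are shown because they hold letters that match motifs of the factors downstream of TAK1. C3AR1 was among the members that differed most between the groups, while CXCL8 and IL6 are textbook NF-κB and AP-1 targets with few reads here. The sequences come from RefSeq promoter windows on build GRCh38.p14 and are written 5′ to 3′ on the strand of the gene, with motif matches in capitals. The C3AR1 stretch (chr12:8066360-8066609, minus strand) covers the 250 bases before the start site. The CXCL8 stretch (chr4:73740319-73740518, plus strand) has 200 bases and the IL6 stretch (chr7:22726950-22727146, plus strand) has 197, because the last 50 and 53 bases before those start sites lie in exons of other transcripts in GENCODE 44 and were left out.
C3AR1: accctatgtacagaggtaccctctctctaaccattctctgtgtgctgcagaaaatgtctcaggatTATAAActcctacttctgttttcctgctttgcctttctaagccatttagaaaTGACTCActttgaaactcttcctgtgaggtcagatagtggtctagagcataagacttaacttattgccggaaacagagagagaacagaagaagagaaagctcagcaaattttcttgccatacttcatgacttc
CXCL8: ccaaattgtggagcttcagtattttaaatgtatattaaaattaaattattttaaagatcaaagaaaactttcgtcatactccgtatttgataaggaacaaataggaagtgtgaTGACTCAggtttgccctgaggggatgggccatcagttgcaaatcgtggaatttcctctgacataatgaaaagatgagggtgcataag
IL6: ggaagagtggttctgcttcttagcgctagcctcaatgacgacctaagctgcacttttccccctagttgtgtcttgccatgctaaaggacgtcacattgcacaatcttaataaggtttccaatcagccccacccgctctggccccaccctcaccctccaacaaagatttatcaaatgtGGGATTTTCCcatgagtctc

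Windows were held for 7 of the 10 members. There was none for CCL2, LIF and CSF1, which were therefore not searched. The motifs searched on both strands were the kappaB consensus, AP-1 (TGANTCA), the GAS element, which is the site of STAT factors, and the TATA box (TATAAA). The C3AR1 and CXCL8 stretches share the same AP-1 letters, TGACTCA, starting 133 and 137 bases before the start site. C3AR1 also holds TATAAA 185 bases before its start, whereas the TATAAA of CXCL8 begins 31 bases before its start, in the part not printed. The IL6 stretch holds a kappaB match 73 bases before the start. Among the other members, IL6ST had a kappaB match on the opposite strand 53 bases before its start, 2 of the 3 LIFR windows held a GAS match, 1 of these LIFR windows also held TATAAA, and OSMR, CXCL12 and the remaining LIFR window held none. Over the 250 bases before each of 35116 annotated start sites, 9.96% held the kappaB consensus, 6.57% AP-1, 6.57% GAS and 10.7% the TATA box. A match describes the letters and is not evidence of a bound site. Sites that depart from these patterns were not marked. The CXCL8 window had no match to the kappaB pattern used, which does not show that it lacks a kappaB site.

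The libraries held between 28839898 and 34469323 counts, and within each group the counts of every pair of replicates differed beyond sampling noise. Expression is given in CPM, read counts relative to a library size scaled by the trimmed mean of M-values (TMM). MAP3K7 reached 76.5 to 77.9 CPM in the scrambled shRNA samples and 29.9 to 33.6 CPM in the TAK1 knockdown samples, a log2 fold change of -1.30 (standard error, SE, 0.062). The groups lay apart on the first principal component, which carried 56.0% of the variance. The summed level of 16 macrophage, leukocyte, endothelial and epithelial markers was 0.649 to 0.826 CPM in scrambled shRNA samples and 0.445 to 0.963 CPM in TAK1 knockdown samples. None of the 16 passed the low-count filter, 7 of them, among these CD163, AIF1, TYROBP and CD3E, had no read in any sample, and the highest level of any in any sample was 0.425 CPM. Of 11 skeletal muscle lineage markers, 9 were tested, with 4 called higher (MYOD1, MYOG, ACTC1 and MYMK), 1 called lower (CHRNA1) and the other 4 (DES, CDH15, TNNT2 and NCAM1) not called. Whether the shift in muscle markers bears on the values of the members was not tested.

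The chemokine gene CCL2 and the complement receptor gene C3AR1 stood apart from the other members. CCL2 (ENSG00000108691.10, chr17:34255274-34257208, plus strand) was measured at 20.7, 22.8 and 23.5 CPM in the 3 scrambled shRNA samples and at 5.95, 4.84 and 4.91 CPM in the 3 TAK1 knockdown samples. The mean was 22.3 ± 1.44 CPM (SD, n = 3) against 5.23 ± 0.622 CPM (SD, n = 3), which is 76.6% lower. The 2 groups were far apart, since the highest knockdown sample lay well under the lowest scrambled sample. The log2 fold change was -2.10 (SE 0.11), the 6th lowest of the 15935 genes in the fit. The raw counts behind these levels ran from 589 to 724 in scrambled shRNA samples and from 162 to 174 in knockdown samples.

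C3AR1 (ENSG00000171860.5, chr12:8056844-8066359, minus strand) was measured at 7.28, 7.21 and 6.88 CPM with scrambled shRNA and at 1.64, 1.50 and 1.79 CPM with TAK1 shRNA. The mean was 7.12 ± 0.215 CPM (SD, n = 3) against 1.64 ± 0.143 CPM (SD, n = 3), or 76.9% lower. No knockdown sample came near the scrambled samples, and the spread within each group was small beside the gap. The log2 fold change was -2.11 (SE 0.16), the 5th lowest in the fit. The counts were 207, 227 and 212 against 48, 53 and 59, so the larger standard error of C3AR1 goes with fewer reads. CCL2 and C3AR1, on different chromosomes and with different products, thus sat next to each other in the order of fold changes, and neither has an exon that overlaps another annotated gene.

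**Figure D1:**
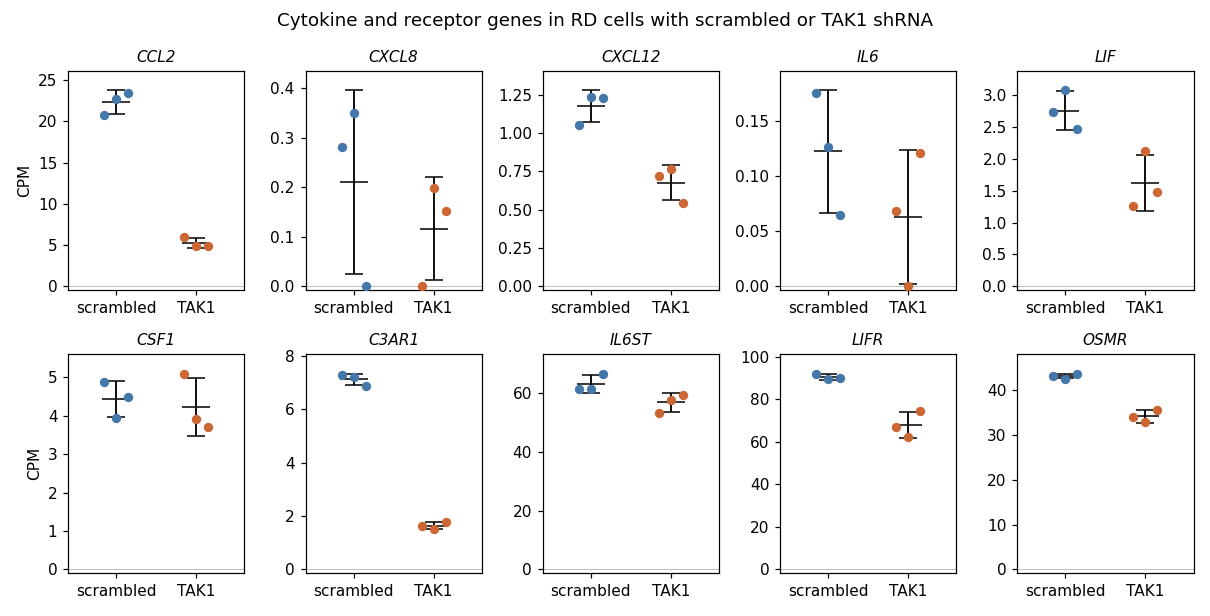
CPM of each of the 10 members in RD cells with scrambled shRNA (blue points, 3 samples) or TAK1 shRNA (orange points, 3 samples), on axes that include 0 and differ between panels. Horizontal bars are means and whiskers 1 SD. CCL2 and C3AR1 show the widest gaps relative to their own levels, at 76.6% and 76.9% below the scrambled mean, while the points of CSF1, CXCL8 and IL6 overlap between the groups.

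Among the other secreted members, LIF and CXCL12 were lower in all knockdown samples than in any scrambled sample, but at low levels. LIF (ENSG00000128342.5, chr22:30240453-30246759, minus strand), the ligand of the LIFR and IL6ST complex, was measured at 2.74, 3.08 and 2.46 CPM with scrambled shRNA and at 1.27, 2.12 and 1.48 CPM with TAK1 shRNA. Its log2 fold change was -0.75 (SE 0.23.) Knockdown replicate 2 lay closest to the scrambled samples, and the coefficient of variation over the knockdown samples, 27.4%, was wider than for any other tested member. Without knockdown replicate 1, the lowest sample, the log2 fold change of LIF was -0.61.

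CXCL12 (ENSG00000107562.18, chr10:44370165-44386493, minus strand) was measured at 1.06, 1.24 and 1.23 CPM with scrambled shRNA and at 0.718, 0.764 and 0.545 CPM with TAK1 shRNA. The groups did not overlap. The counts were only 30, 39 and 38 against 21, 27 and 18, and the log2 fold change of -0.80 had the widest standard error of the tested members, 0.34. LIF and CXCL12 therefore had similar fold changes, each with a wider error than LIFR, OSMR and IL6ST.

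CSF1 (ENSG00000184371.14, chr1:109910242-109930992, plus strand) encodes the macrophage colony-stimulating factor. It was measured at 4.89, 3.94 and 4.48 CPM with scrambled shRNA and at 5.10, 3.91 and 3.70 CPM with TAK1 shRNA. The groups overlapped, since the highest value of all 6 samples was in knockdown replicate 1 and the lowest in knockdown replicate 3. The log2 fold change was -0.07 (SE 0.16), and it turned to 0.01 without knockdown replicate 3 and to 0.00 without scrambled replicate 1.

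CXCL8 (ENSG00000169429.12, chr4:73740519-73743716, plus strand) had 8, 11 and 0 reads with scrambled shRNA and 0, 7 and 5 reads with TAK1 shRNA. Over each group this is 0.209 CPM (exact Poisson 95% interval 0.126 to 0.327) and 0.123 CPM (0.0635 to 0.215), intervals that cover counting error only. A sample without reads occurred in each group and the intervals overlapped. Such overlap is not a test of the difference, and the reads are too few to settle whether there is one.

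IL6 (ENSG00000136244.12, chr7:22725884-22732002, plus strand) had 5, 4 and 2 reads with scrambled shRNA and 2, 0 and 4 reads with TAK1 shRNA. The pooled levels were 0.121 CPM (0.0605 to 0.217) and 0.0615 CPM (0.0226 to 0.134), again with overlapping intervals. IL6, which gives the cytokine family its name, was thus near the limit of detection in both groups, and STEAP1B and IL6-AS1 overlap its exons on the opposite strand.

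The IL6 family receptor chains among the members had smaller fold changes than CCL2, C3AR1, LIF and CXCL12. LIFR (ENSG00000113594.10, chr5:38474668-38608354, minus strand) was measured at 92.1, 89.4 and 90.0 CPM with scrambled shRNA and at 67.1, 62.2 and 74.5 CPM with TAK1 shRNA. All knockdown samples were below the scrambled samples, which varied by only 1.61% (coefficient of variation) against 9.08% in the knockdown group. The log2 fold change was -0.41 (SE 0.060.)

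OSMR (ENSG00000145623.13, chr5:38845858-38945596, plus strand), the chain that pairs with IL6ST to bind oncostatin M, lies on the same arm of chromosome 5 as LIFR. It was measured at 43.3, 42.6 and 43.7 CPM with scrambled shRNA and at 34.0, 32.9 and 35.7 CPM with TAK1 shRNA. The groups did not overlap, and the log2 fold change was -0.34 (SE 0.064.) With scaling by library size alone it was -0.29.

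IL6ST (ENSG00000134352.21, chr5:55935095-55995022, minus strand) is the chain shared by the receptor complexes of IL6, LIF, IL11 and oncostatin M. It was measured at 61.5, 61.5 and 66.7 CPM with scrambled shRNA and at 53.4, 57.9 and 59.6 CPM with TAK1 shRNA. The groups did not overlap, but the highest knockdown sample lay just under the lowest scrambled samples. The log2 fold change was -0.15 (SE 0.060), the smallest difference of the 3 receptor chains. LIFR, OSMR, IL6ST and LIF share exon bases with opposite-strand annotations (LIFR-AS1, RICTOR, an unnamed gene, and LIF-AS1 with LIF-AS2), and whether counting used strand is not given in the sources used here.

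A gene was called when its adjusted p was under 0.05 and its absolute log2 fold change at least 0.25. Under that rule 11.3% of all tested genes were called lower with TAK1 shRNA and 11.8% higher. Of the 8 tested members, 5 met the rule in the lower direction (CCL2, C3AR1, LIF, LIFR and OSMR), 0 met it in the higher direction, and CXCL12, IL6ST and CSF1 did not meet it. In 7 of the 8 (all but CSF1) every knockdown sample was below every scrambled sample, a pattern held by 22.2% of all tested genes. The median log2 fold change of the 8 was -0.58, with a range from -2.11 to -0.07, beside a median of 0.02 over all tested genes. Because the choice of members used this comparison, nothing is read from these counts. The members just inside the fold limit of 0.25 and just outside it were OSMR at -0.34 and IL6ST at -0.15. LIF no longer met the rule without knockdown replicate 1 (log2 fold change -0.61) or without scrambled replicate 2 (-0.67), and CXCL12 met it when only genes with at least 10 counts in every sample were fitted (-0.79).

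**Figure D2:**
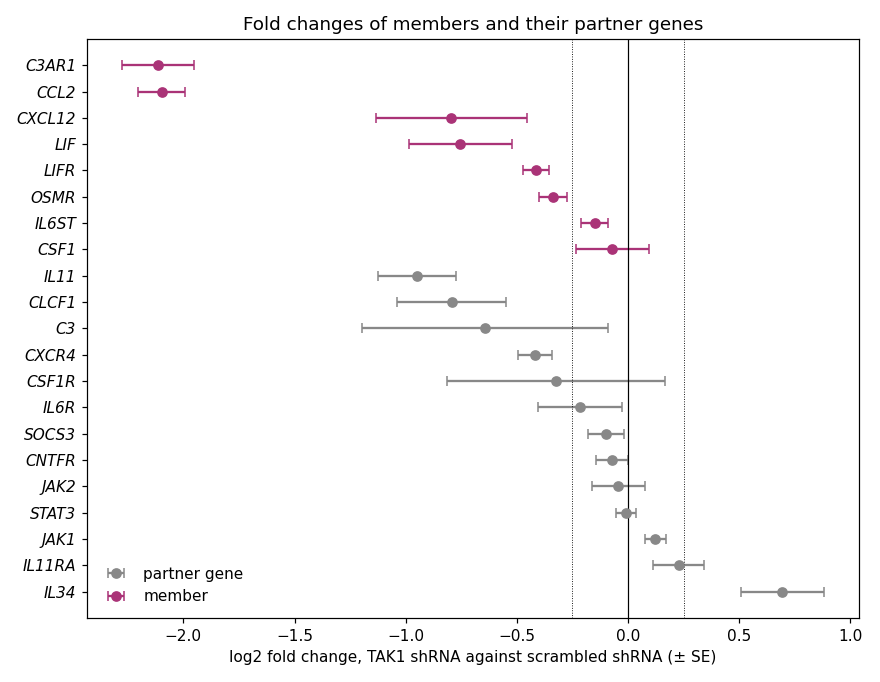
Log2 fold change (TAK1 shRNA against scrambled shRNA) of the 8 tested members (purple) and 13 tested partner genes (grey), with whiskers of 1 standard error and dotted lines at 0.25 above and below 0. C3AR1 and CCL2 sit near -2.1, the member receptor chains LIFR, OSMR and IL6ST between -0.41 and -0.15, and STAT3 at -0.01. The partner receptor genes IL6R, CNTFR and IL11RA sit at -0.21, -0.07 and 0.23.

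Levels of different genes were compared per kb of exon (union of all annotated exons), in CPM per kb. With scrambled shRNA the order was CCL2 at 11.5, LIFR at 7.44, OSMR at 6.02, IL6ST at 5.24, C3AR1 at 2.04, CSF1 at 0.846, LIF at 0.714, CXCL12 at 0.191, CXCL8 at 0.0812 and IL6 at 0.0284. The ranges over samples overlapped between CSF1 and LIF and between CXCL8 and IL6, and every other neighbouring pair was apart. CCL2 was therefore the member with the most reads per kb in control cells.

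With TAK1 shRNA the order changed at the top. LIFR came first at 5.59 CPM per kb, followed by OSMR at 4.77 and IL6ST at 4.72, whose ranges overlapped, and then by CCL2 at 2.70. CSF1 at 0.808 then stood above C3AR1 at 0.471 and LIF at 0.420, and the ranges of C3AR1 and LIF overlapped. CXCL12 at 0.110, CXCL8 at 0.0450 and IL6 at 0.0146 remained the lowest, with CXCL8 and IL6 overlapping. Thus CCL2 moved from above the 3 receptor chains to below them, and C3AR1 from above CSF1 to below it. With the longest transcript as the length, CCL2 and C3AR1 changed place in the same way, while CSF1 and LIF no longer overlapped with scrambled shRNA and LIFR, IL6ST and OSMR came in that order with overlapping ranges after knockdown.

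**Figure D3:**
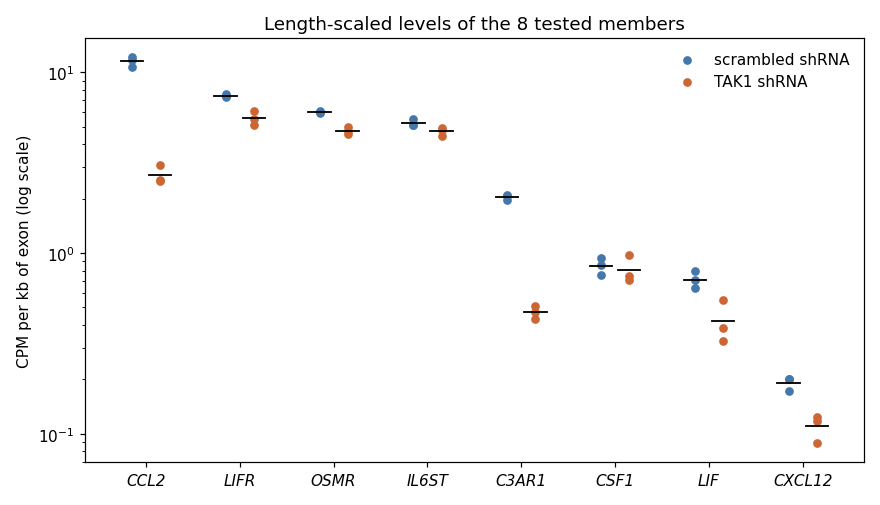
CPM per kb of exon (log scale) of the 8 tested members in each sample (blue, scrambled shRNA; orange, TAK1 shRNA), with the group mean as a bar, ordered by the scrambled shRNA mean. CCL2 drops from 11.5 to 2.70 CPM per kb, below the 3 receptor chains.

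Genes that act with the members were followed in 10 lists chosen by function, which leave the members out. The lists too were chosen with earlier results of these data known. The counts of calls below therefore describe the lists, and an excess of lower calls in them supports nothing. Of 206 listed genes, 106 were tested, 7 were called higher and 24 lower in the edgeR quasi-likelihood test, with p adjusted by Benjamini-Hochberg over all 15935 genes. These are 6.6% and 22.6% of the tested genes of the lists, beside 11.8% higher and 11.3% lower over all tested genes, the shares against which the count of each list below stands. The median log2 fold change over the lists was -0.07, beside 0.02 over all tested genes. At a fold limit of 0.5 the counts were 1 higher and 13 lower, and without scrambled replicate 2 they were 4 higher and 22 lower.

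**Figure D4:**
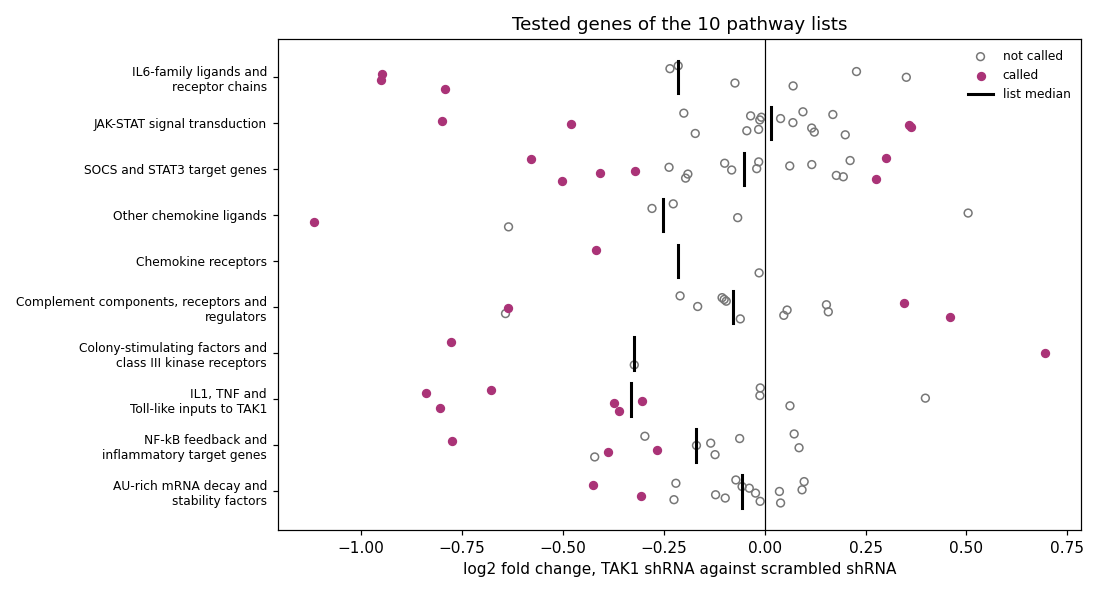
Log2 fold change (TAK1 shRNA against scrambled shRNA) of every tested gene in the 10 functional lists, one row per list, with called genes filled, other genes open and the list median as a bar. The list of IL1, TNF and Toll-like inputs, which also holds IL17RA, has 6 of 10 genes called lower, and the JAK-STAT list is centered near 0.

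Of the 14 other ligands and receptor chains of the IL6 family, 9 were tested and 3 fell. The list median was -0.21. IL11, a cytokine that signals through IL11RA and IL6ST, fell from 5.04 to 2.60 CPM (log2 fold change -0.95, SE 0.18, adjusted p = 0.000150 by edgeR). CLCF1, a cytokine of the same family, fell by 0.79 on the log2 scale (adjusted p = 0.0140). CLCF1 was at 2.78, 4.16 and 1.95 CPM with scrambled shRNA and at 1.64, 1.67 and 1.82 CPM with TAK1 shRNA, and without scrambled replicate 2 its log2 fold change was -0.46 (adjusted p = 0.218). The receptor genes IL6R (-0.21, adjusted p = 0.425), IL11RA (0.23, adjusted p = 0.141) and CNTFR (-0.07, adjusted p = 0.473) did not pass the test. OSM, the ligand of OSMR, had no read in any sample, and a limit of 3 counts over a group corresponds to 0.0331 CPM for scrambled shRNA and 0.0307 CPM for TAK1 shRNA. No gene of this list was called higher by edgeR, none reached an unadjusted p under 0.05 in that direction, and DESeq2 called none, a count of 0 in each case.

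The transducers downstream of these receptors were mostly not called. Of the 18 tested genes of JAK-STAT signal transduction (21 listed), 2 rose and 2 fell, with a median of 0.02. STAT3 was at 227 CPM in scrambled and 226 CPM in knockdown samples (log2 fold change -0.01, SE 0.046, adjusted p = 0.915), and JAK2 was at -0.04 (adjusted p = 0.816). Both values turned positive, at 0.04 and 0.00, with scaling by library size alone, and STAT3 did so too without scrambled replicate 1 (0.02) and without knockdown replicate 2 (0.00). JAK1 was 0.12 higher on the log2 scale (adjusted p = 0.0427), below the fold limit. PTPN11, which encodes the phosphatase SHP2 that binds IL6ST, fell by 0.48 (adjusted p = 3.25e-08). SH2B3, an adaptor that restrains JAK2 signaling, fell by 0.80 (adjusted p = 1.25e-11), from 124 to 71.0 CPM. PIAS3, an inhibitor of STAT3, rose by 0.36 (adjusted p = 5.65e-05), and PIAS4, named after its values were seen, rose as well.

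The list that holds SOCS family genes and STAT3 target genes was split. Whether STAT3 controls each listed gene in RD cells was not tested. Of 18 tested (23 listed), 4 fell and 2 rose, with a median of -0.05. SOCS3, the feedback inhibitor that binds IL6ST, was at 24.7 against 23.0 CPM (log2 fold change -0.10, adjusted p = 0.370). SOCS6 fell by 0.58 (adjusted p = 8.96e-06), A2M, a STAT3 target that encodes a protease inhibitor, fell by 0.50 (adjusted p = 0.000768), and IL4R, the IL4 receptor chain, fell by 0.41 (adjusted p = 4.22e-07). JUNB, an AP-1 subunit, was the other gene that fell, and SOCS7 and BCL3 rose, all 3 named after their values were seen.

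Of 34 chemokine ligand genes other than the members, 18 had no read in any sample and 6 were tested, with a median of -0.25. Of these 6, 1 fell and 0 rose (edgeR, with 0 at an unadjusted p under 0.05 and 0 by DESeq2 in the higher direction). It was CCL5, a T cell and monocyte chemokine, at 2.57, 2.79 and 2.11 CPM against 1.47, 0.934 and 1.06 CPM (log2 fold change -1.12, SE 0.25, adjusted p = 0.00121). The groups did not overlap. Of 23 chemokine receptor genes, only 2 were tested, and CXCR4, the receptor of CXCL12, fell from 25.3 to 18.9 CPM (log2 fold change -0.42, SE 0.076, adjusted p = 0.000124). CCR2, CXCR1 and CXCR2, the receptors of CCL2 and CXCL8, had no read in any sample, with the same 3-count limits as OSM. ACKR3, the other receptor of CXCL12, had 4 reads over the scrambled group and 2 over the knockdown group.

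Neighbouring protein-coding genes within 500 kb on each side were examined for CCL2, CXCL8, LIF, LIFR and OSMR, and not for the other members. Genes of other types, such as the antisense genes named above, were left out. The calls below stand beside 11.8% called higher and 11.3% called lower over all tested genes. Around CCL2 lie 7 protein-coding genes, among them other members of the CC chemokine cluster, and 0 of them had enough counts to be tested. Around CXCL8, 5 of 15 neighbours were tested and 0 were called in either direction by edgeR, with log2 fold changes from -0.28 to 0.50 and adjusted p from 0.121 to 0.785. Around LIF, 15 of 24 neighbours were tested and 2 were called higher, CCDC157 (1.03) and MTMR3 (0.42). Around LIFR and OSMR, 3 of 5 were tested and 1 was called higher, DAB2 (0.25). The names of these 3 called neighbours were chosen after their values were seen. No tested protein-coding neighbour of LIF, LIFR or OSMR was called lower, and the lowest was at -0.37 near LIF and at -0.10 near LIFR and OSMR.

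Of 30 complement genes, 14 were tested, 2 rose and 1 fell, with a median of -0.08. C3, the precursor of the C3AR1 ligand, was at only 0.457, 0.603 and 0.616 CPM against 0.752, 0.0566 and 0.303 CPM, and its log2 fold change of -0.64 had a standard error of 0.55 (adjusted p = 0.412). Without knockdown replicate 1 it was -1.64, without knockdown replicate 2 it was -0.11, and with voom it was -1.22. C5AR1, the receptor for C5a, had 6 and 2 reads over the scrambled and knockdown groups. CD46, a membrane regulator that inactivates C3b and C4b, fell from 121 to 78.1 CPM (log2 fold change -0.64, SE 0.057, adjusted p = 2.97e-09). C1R, a protease of the classical pathway, rose by 0.46 (adjusted p = 0.0155), and CFD, a protease of the alternative pathway, rose by 0.35 (adjusted p = 0.0476). C1R did not pass without scrambled replicate 2 (adjusted p = 0.0757), and CFD, whose groups overlapped, did not pass with DESeq2 (0.0699), with voom (0.0559) or when any 1 of 4 samples was left out.

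Among 11 genes of colony-stimulating factors and class III receptor kinases, 3 were tested, with a median of -0.32. CSF1R, the receptor of CSF1, was at 0.483 against 0.382 CPM (log2 fold change -0.32, SE 0.49, adjusted p = 0.667), and it turned to 0.11 without scrambled replicate 2. IL34, the other ligand of CSF1R, rose from 2.78 to 4.53 CPM (log2 fold change 0.69, adjusted p = 0.00483), although without knockdown replicate 1, the highest sample, the value was 0.49 (adjusted p = 0.0601). KITLG, the ligand of KIT, fell from 9.79 to 5.67 CPM (log2 fold change -0.78, adjusted p = 5.76e-05).

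The list of IL1, TNF and Toll-like inputs to TAK1 holds ligands, receptors and adaptors, and also the receptor gene IL17RA. Of its 21 genes, 10 were tested. By edgeR 6 of these fell and 0 rose, with a median of -0.33. In the higher direction, 0 reached an unadjusted p under 0.05 and DESeq2 called 0. IL1RAP, the accessory chain of the IL1 receptor, fell from 11.5 to 6.53 CPM (log2 fold change -0.81, adjusted p = 5.76e-06). TNFRSF1A, the main TNF receptor, fell from 141 to 88.4 CPM (-0.68, adjusted p = 1.20e-10), and TLR6, a Toll-like receptor, fell from 3.13 to 1.75 CPM (-0.84, adjusted p = 0.00384). The other genes that fell were IL17RA, MYD88 and IRAK4. The tested genes not called were TLR1 (0.40), IRAK1 (0.06), TNFRSF1B (-0.01) and TLR3 (-0.01). Both sets were named after their values were seen. The listed genes with too few reads to be tested included IL1R1, TLR2, IL1A, IL1B and TNF, and TLR4 had no read in any sample. These too were named after their values were seen.

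Of 11 tested NF-κB feedback and inflammatory target genes (14 listed), 3 fell and 0 rose (edgeR, with 0 at an unadjusted p under 0.05 and 0 by DESeq2 in the higher direction), with a median of -0.17. The other 8 tested genes were not called. Their log2 fold changes were 0.09 (NFKBIA), 0.07 (TNIP1), -0.06 (SOD2), -0.12 (IER3), -0.13 (NFKBIZ), -0.17 (NFKBIE), -0.30 (TNFAIP3) and -0.42 (ICAM1). They were named after their values were seen. The 3 that fell all encode NF-κB subunits. RELB fell from 5.39 to 3.15 CPM (log2 fold change -0.78, adjusted p = 0.000258), NFKB1 from 102 to 78.3 CPM (-0.39, adjusted p = 1.43e-06) and NFKB2 from 30.8 to 25.6 CPM (-0.27, adjusted p = 0.00754). NFKB2 lay close to the fold limit and dropped under it with scaling by library size alone (-0.22) and without knockdown replicate 3 (-0.22), and without scrambled replicate 2 it did not pass (adjusted p = 0.0623).

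Cytokine mRNAs such as those of IL6 and CXCL8 are known to be destabilized through AU-rich elements. All 15 genes listed more broadly as mRNA decay and stability factors were tested. Of these, 2 fell and 0 rose (edgeR, with 0 at an unadjusted p under 0.05 and 0 by DESeq2 in the higher direction), with a median of -0.06. HNRNPD, also called AUF1, which binds AU-rich elements, fell from 538 to 435 CPM (log2 fold change -0.31, adjusted p = 8.71e-06). ZC3H12A, or regnase-1, an endonuclease that degrades IL6 mRNA, fell by 0.43 (adjusted p = 0.0105), and without scrambled replicate 1 the adjusted p was 0.0841.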

How the data were processed

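Poly(A)-enriched mRNA was sequenced in read pairs from 3 samples of RD cells with scrambled shRNA and 3 with TAK1 shRNA. The authors deposited raw counts of reads per gene, without normalization, made after base calling with CASAVA and alignment with STAR. The counting program, annotation release and strand use are not given in the sources used here. Samples were grouped by their labels. Genes passing the filterByExpr filter (15935 of 58735 rows) were fitted with edgeR 4.0.16 in R 4.3.3 (TMM, quasi-likelihood test, group as the only term), with Benjamini-Hochberg adjustment over all of them, and called genes had an adjusted p below 0.05 with a log2 fold change of 0.25 or more in either direction. Standard errors were the fold change on the log2 scale over the root of the F value. CPM used TMM-scaled library sizes. Exon lengths, positions and overlaps came from GENCODE 44, and upstream windows from RefSeq. Total counts of 28839898 to 34469323 leave counting error small except for genes with few reads.

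The members and the functional lists were chosen with earlier results of these data known. The genes named are all members, MAP3K7, a set of partners listed by function, and up to 3 called genes per list with the largest absolute log2 fold change and a mean of at least 1 CPM in the higher group. Some genes that these rules would name are not reported here. The alternatives tried were DESeq2 1.42.0, limma 3.58.1 (voom), other scalings and filters, a larger prior count, a fold limit of 0.5, a term for the replicate number, another gene length and leaving out each sample. The scripts were tested on simulated data.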

Additional observations from a re-analysis of the deposited data

How the results depend on the processing

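With a fold limit of 0.5 in place of 0.25, 735 genes were called higher and 680 lower, and 1 and 13 of the pathway genes. Over the fits that left out 1 sample, the pathway genes called higher ran from 4 (without scrambled replicate 2) to 8, those called lower from 22 to 25, all genes called higher from 1582 to 1810 and all genes called lower from 1675 to 1931. Scaling by library size alone gave 2376 higher and 1404 lower, so that 62.9% of calls were higher against 51.0% with TMM, and it moved the median log2 fold change of all genes from 0.02 to 0.07. The fit with the replicate number as a block gave 1942 higher and 1848 lower in all and 7 and 24 among pathway genes, and it changed no call among members. Deviations of same-numbered samples correlated at 0.092, 0.056 and 0.035 over 15935 genes. Between samples of different number the correlations ran from -0.099 to 0.049, the highest being scrambled replicate 3 with knockdown replicate 2. These values do not settle whether the numbers pair the samples, and the labels do not say so. The main fit used no pairing.

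With the longest annotated transcript as the length, levels per kb of CXCL12, IL6ST, LIFR, OSMR and CSF1 moved by more than the spread between replicates, and the cause is the shorter length. CSF1, STAT3, JAK2 and CSF1R, none of them called, changed sign under the alternatives named beside their values. For the other members, the partners and the up to 3 genes named per list, the sign and the call held under all alternatives run at the fold limit of 0.25, apart from the lost or gained calls of LIF, CXCL12, CLCF1, C1R, CFD, IL34, NFKB2 and ZC3H12A given above. Other genes, named after their values were seen or as muscle markers, were not followed under the alternatives. Depth limits CXCL8 and IL6, with at most 19 reads over a group, and leaves CXCL12 and LIF with wide errors. The design has 1 shRNA sequence and 1 cell line, so effects of TAK1 loss and of that shRNA sequence cannot be told apart.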
